A study of Homo sapiens with 36 samples.

Results

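The immediate early and ERK feedback genes are 40 genes whose transcripts appear within minutes of growth factor signalling or that brake that signalling. They were taken by symbol from the count tables of a study of EglN2 and KDM5A knockdown, and all 40 were found among the 20633 named genes listed in any of its tables. By role they fall into 8 AP-1 subunits, 7 EGR and KLF factors, 10 ERK feedback and output genes and 15 other immediate early genes.

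RNA was sequenced from 2 established human cell lines. MDA-MB-231 is a triple-negative breast cancer line, and 293T is a human embryonic kidney line that carries the SV40 large T antigen. In each line EglN2, a prolyl hydroxylase also known as PHD1, was targeted with the siRNAs siEglN2-1 or siEglN2-2 and set against siControl. In each line KDM5A, a histone demethylase, was targeted with the shRNAs shKDM5A-1 or shKDM5A-2 and set against shControl. Each of these 12 groups had 3 libraries, 36 libraries in all, and every culture was grown in DMEM with 10% fetal bovine serum and 1% penicillin and streptomycin. No serum withdrawal or growth factor pulse is named in the labels, so the values describe cells in growth medium, and the time after siRNA or shRNA delivery is not given in the sources used here. Separate cultures for the 3 libraries of 1 group are not recorded, so each p-value reflects library-to-library spread, which may be technical. Because whole cultures were lysed, fewer expressing cells and less RNA per cell cannot be told apart.

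Immediate early genes need no new protein for their induction: RAS and the RAF, MEK and ERK kinases activate ternary complex factors that sit with SRF on CArG boxes, while CREB acts at cAMP response elements. Their products include the FOS and JUN proteins that pair as AP-1, the zinc-finger EGR and KLF factors, and short-lived RNA-binding and adaptor proteins. ERK output also turns on its own brakes, the DUSP phosphatases and the SPRY and SPRED proteins, and the ETS factors ETV4 and ETV5. DUSP6, SPRY4, ETV4 and ETV5 are commonly read as a transcript gauge of ERK activity.

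A promoter window running 250 bases upstream to 50 bases downstream of an annotated start was found for 28 of the 40 genes in RefSeq (assembly GRCh38.p14). The windows were searched on both strands for the CArG box, the cAMP response element TGACGTCA, the AP-1 site TGANTCA and the EGR site GCGTGGGCG, and no other motif that might overlap them was scored. EGR1, EGR2 and SRF held a CArG box, 10.7% of the 28 genes, against 1.6% of all 27305 genes with a window. JUND, DUSP1 and ZFP36L1 held TGACGTCA, also 10.7%, against 2.25% of all genes. TGANTCA was found for FOSL2 alone (3.57% against 9.37%), and GCGTGGGCG for none (0% against 0.96%). These matches are descriptions of letters in a window. The windows holding a CArG box or TGACGTCA are printed, in whole or in part, for every member that had them. EGR1 and SRF fell in both lines after EglN2 knockdown, while EGR2 was called in no contrast against controls. The EglN2 response of DUSP1, JUND and ZFP36L1 differed between the lines, as it did for 60.5% of the 38 members tested and 31.2% of all genes. Whether the motifs bear on these responses was not tested. Each sequence is given 5′ to 3′ on the strand of its gene in GRCh38.p14, with the motif in capitals.
EGR1, the plus strand at chr5:138465229-138465528, holding 2 CArG boxes: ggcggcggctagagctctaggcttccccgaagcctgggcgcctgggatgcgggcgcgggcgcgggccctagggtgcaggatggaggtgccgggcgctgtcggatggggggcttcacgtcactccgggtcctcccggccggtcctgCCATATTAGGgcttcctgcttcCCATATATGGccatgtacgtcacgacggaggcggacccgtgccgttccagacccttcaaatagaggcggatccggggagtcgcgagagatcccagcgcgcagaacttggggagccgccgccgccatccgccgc
SRF, the plus strand at chr6:43171219-43171289, holding 2 CArG boxes: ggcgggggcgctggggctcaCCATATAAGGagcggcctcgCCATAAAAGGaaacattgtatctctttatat
EGR2, the minus strand at chr10:62816406-62816456: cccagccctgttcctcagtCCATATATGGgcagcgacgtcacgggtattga
DUSP1, the minus strand at chr5:172771293-172771340: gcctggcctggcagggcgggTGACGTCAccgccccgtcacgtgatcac
JUND, the minus strand at chr19:18281795-18281842: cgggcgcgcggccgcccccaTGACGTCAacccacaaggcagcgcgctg
ZFP36L1, the minus strand at chr14:68793441-68793488: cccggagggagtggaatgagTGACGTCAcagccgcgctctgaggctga

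Levels are given as CPM, the counts scaled to a common library size with TMM factors, and log2 fold changes are given ± their standard error, with 3 libraries in each group. The 36 libraries held between 14361214 and 27592132 counts each. EGLN2 averaged 22.5 ± 2.22 and 21.7 ± 0.767 CPM with siEglN2-1 and siEglN2-2, against 106 ± 0.787 CPM with siControl, in MDA-MB-231 (SD, log2 fold changes of -2.24 and -2.29). In 293T it averaged 22.0 ± 0.096 and 22.4 ± 0.269 CPM with the siRNAs, against 65.2 ± 7.38 CPM with siControl (-1.57 and -1.54). KDM5A averaged 16.8 ± 0.659 and 18.8 ± 0.555 CPM with shKDM5A-1 and shKDM5A-2, against 50.2 ± 4.13 CPM with shControl, in MDA-MB-231 (-1.57 and -1.42). In 293T it averaged 27.2 ± 0.796 and 31.6 ± 0.961 CPM with the shRNAs, against 66.8 ± 0.711 CPM with shControl (-1.30 and -1.08). KDM5A was also called lower with siEglN2 in MDA-MB-231 (-0.19 and -0.17). EGLN2 was called lower with shKDM5A-1 in MDA-MB-231 (-0.11, adjusted p = 0.0181) and higher with shKDM5A-2 in 293T (0.16, adjusted p = 0.008). Of the 7 genes fixed as 293T markers, 6 had no row in the MDA-MB-231 tables, and CD44 and TGFBI had no row in the 293T tables. Of the 8 markers of other cell types, CD3E, VWF and ALB had no row and PTPRC had at most 0.762 CPM, while CD68, PECAM1, COL1A1 and COL3A1 were detected. CD68 averaged 142 and 85.4 CPM with shKDM5A-1 and shKDM5A-2 against 103 CPM with shControl in MDA-MB-231, where it averaged 72.5 and 69.9 CPM with the siRNAs against 87.5 CPM with siControl. PECAM1 averaged 3.11 and 2.10 CPM with the shRNAs against 7.80 CPM with shControl, and 3.28 and 3.22 CPM with the siRNAs against 4.42 CPM with siControl, in MDA-MB-231, and had no row in 293T. COL1A1 averaged 16.8 to 21.9 CPM over the groups of MDA-MB-231 and 38.1 to 56.1 CPM over those of 293T, where COL3A1 averaged 2.04 to 9.85 CPM. Among the siControl libraries, the unnumbered one of 293T and number 1 of MDA-MB-231 stood apart from their groups, at chi-square values per degree of freedom of 19.2 and 22.8 against 2.02 for the other pair, and of 6.72 and 7.66 against 1.57. The share of counts from mitochondrial genes was 9.10 to 9.41% with siEglN2 against 8.79 to 8.89% with siControl in MDA-MB-231, and 6.45 to 6.97% against 5.26 to 5.44% in 293T. With shKDM5A it was 9.07 to 9.87% against 7.66 to 7.71% with shControl in MDA-MB-231, and 3.69 to 3.97% against 4.18 to 4.21% in 293T. The part of these markers and of these shares in the gene results was not tested.

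After EglN2 knockdown more of the 40 genes were called lower than higher in both lines, FOS, JUN, FOSL1, DUSP4 and EGR1 among them. A gene is called here at an adjusted p under 0.05 in edgeR's quasi-likelihood test, with p-values adjusted over all genes tested in that table. In MDA-MB-231, siEglN2-1 called 9 of 39 tested members higher and 21 lower, and siEglN2-2 called 9 higher and 20 lower. Over all 15109 genes, siEglN2-1 called 21.5% higher and 23% lower, and siEglN2-2 called 21.8% higher and 23.6% lower. In 293T, siEglN2-1 called 2 of 38 tested members higher and 22 lower, and siEglN2-2 called 3 higher and 16 lower. Over all 17622 genes, siEglN2-1 called 16.9% higher and 18.2% lower, and siEglN2-2 called 16.8% higher and 17.3% lower. The share of members called lower was above that of all genes with each siRNA in each line. As the members were chosen with earlier results of these data known, this and the later shares are descriptions.

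After KDM5A knockdown the calls depended on the line and on the shRNA, with FOS, DUSP6 and IER3 lower in MDA-MB-231 and JUN and MYC called in opposite directions by the shRNAs in 293T. In MDA-MB-231, shKDM5A-1 called 12 of 39 members higher and 21 lower, and shKDM5A-2 called 7 higher and 27 lower. Over all 15454 genes, shKDM5A-1 called 28.1% higher and 27.2% lower, and shKDM5A-2 called 29.4% higher and 29.6% lower. In 293T, shKDM5A-1 called 19 of 39 members higher and 2 lower, while shKDM5A-2 called 9 higher and 13 lower. Over all 17376 genes there, shKDM5A-1 called 21.6% higher and 20.6% lower, and shKDM5A-2 called 19.5% higher and 19.5% lower. The median log2 fold change of the members was -0.12 and -0.10 with siEglN2-1 and siEglN2-2 in MDA-MB-231, and -0.33 and -0.36 in 293T. With shKDM5A-1 and shKDM5A-2 the medians were -0.14 and -0.20 in MDA-MB-231, and 0.18 and -0.05 in 293T. Over all genes the medians of these 8 contrasts lay between -0.00482 and 0.011. The map of fold changes by gene and reagent shows the 4 role groups.

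**Figure D1:**
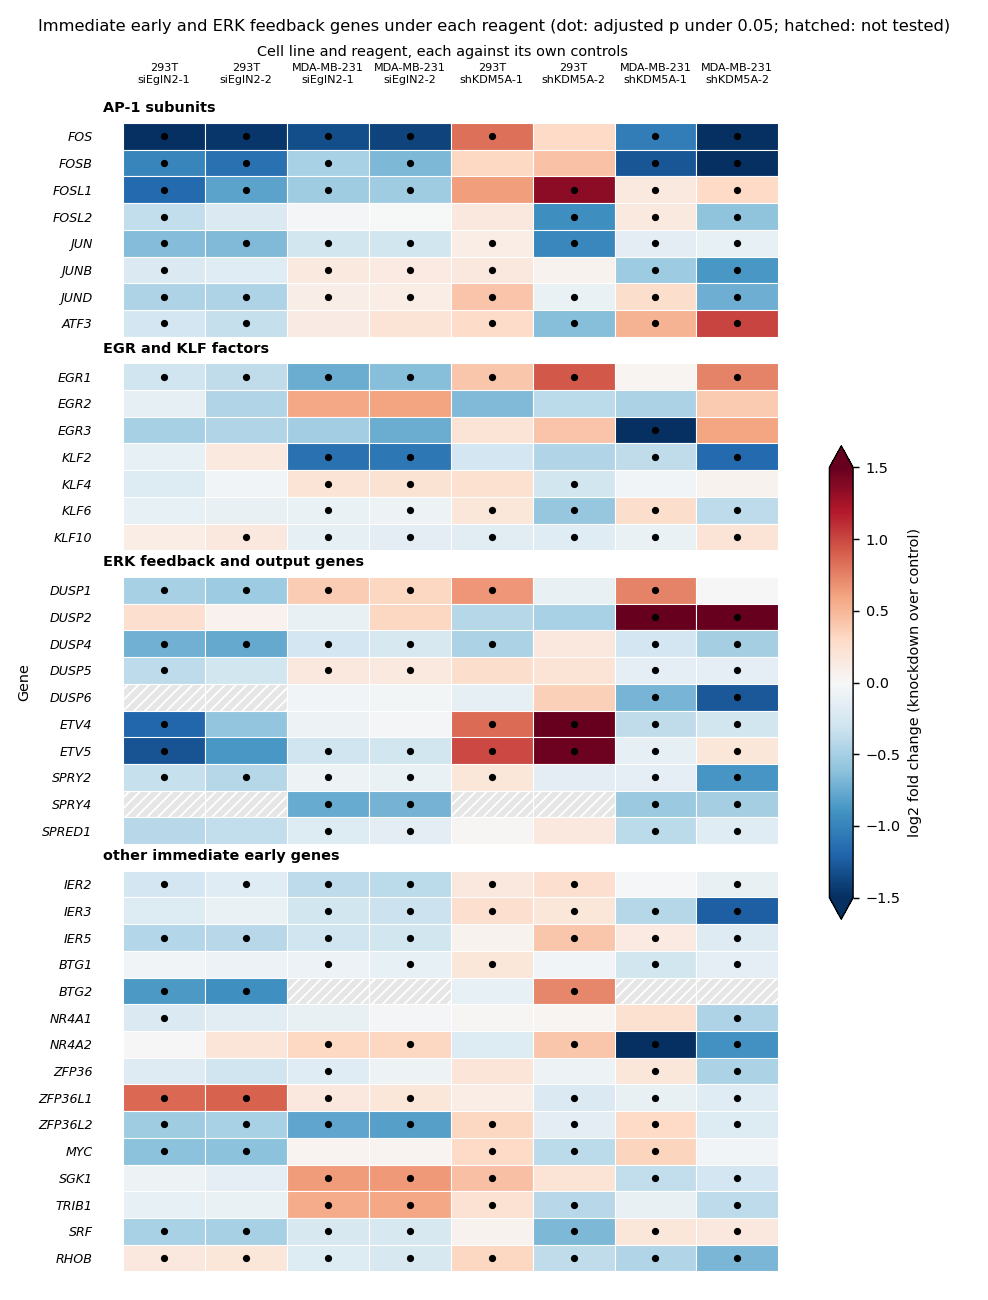
Log2 fold change of each gene (rows, by role) under each of the 8 reagents against its own controls (columns), with colour running blue for lower to red for higher and saturating at 1.5 on the log2 scale. A dot marks an adjusted p under 0.05 and hatching a gene without a test in that table. FOS carries a dot in 7 of the 8 columns, 6 of them blue, and the column for shKDM5A-1 in 293T is mostly red, with 19 members called higher and 2 lower.

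Called with both reagents of an experiment in the same direction, 9 members were higher and 20 lower with siEglN2 in MDA-MB-231, where 18.3% and 20.4% of all genes were. In 293T with siEglN2, 2 members were higher and 16 lower, where 14.6% and 15.5% of all genes were. With shKDM5A in MDA-MB-231, 4 were higher, 18 lower and 8 called in opposite directions, where 16.4% of all genes were higher and 15.8% lower with both. With shKDM5A in 293T, 5 were higher, 1 lower and 8 called in opposite directions, where 7.33% of all genes were higher and 6.11% lower with both. Opposite calls were made at 1127 of 15454 genes in MDA-MB-231 and at 1493 of 17376 in 293T. Both reagents of an experiment share their control libraries, so a control library that stands apart enters both calls.

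FOS, FOSB, FOSL1 and JUN were called lower with both EglN2 siRNAs in both lines, FOSL1 in 293T on few reads and with a siEglN2-2 call lost when any 1 library was left out. In MDA-MB-231, 4 of 8 subunit genes fell with both siRNAs (FOS, FOSB, FOSL1 and JUN) and JUNB and JUND rose, or 50% lower and 25% higher against 20.4% and 18.3% of all genes. In 293T 6 of 8 fell with both (FOS, FOSB, FOSL1, JUN, JUND and ATF3), 75% against 15.5% of all genes, and none rose, against 14.6%. FOS, the founding partner of JUN in AP-1, stood in MDA-MB-231 at 12.9, 9.72 and 12.1 CPM with siEglN2-1 and 11.2, 11.2 and 10.7 CPM with siEglN2-2, against 26.5, 28.8 and 31.9 CPM with siControl. In 293T it stood at 1.36, 1.21 and 1.38 CPM with siEglN2-1 and 1.199, 1.62 and 1.46 CPM with siEglN2-2, against 3.97, 4.03 and 3.83 CPM with siControl. Every siEglN2 library lay below every siControl library in both lines. The log2 fold change of FOS was -1.33 ± 0.08 with siEglN2-1 (adjusted p = 4.75e-17) and -1.39 ± 0.08 with siEglN2-2 (adjusted p = 9.24e-18) in MDA-MB-231. In 293T its log2 fold change was -1.58 ± 0.15 with siEglN2-1 (adjusted p = 2.62e-05) and -1.46 ± 0.14 with siEglN2-2 (adjusted p = 4.16e-05). With 1.20 to 1.62 CPM in the siEglN2 libraries of 293T, few reads carry those values.

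FOSB, a FOS relative with a similar induction, was scarce in both lines. In MDA-MB-231 it had 3.503, 4.37 and 2.89 CPM with siEglN2-1 and 3.39, 2.92 and 3.18 CPM with siEglN2-2, against 4.81, 5.57 and 4.74 CPM with siControl. In 293T FOSB had 2.33, 1.55 and 2.45 CPM with siEglN2-1 and 1.97, 2.48 and 1.28 CPM with siEglN2-2, against 4.43, 4.46 and 3.69 CPM with siControl. The knockdown libraries lay below the controls without overlap, and the log2 fold changes were -0.49 ± 0.16 with siEglN2-1 (adjusted p = 0.0087) and -0.67 ± 0.16 with siEglN2-2 (adjusted p = 0.000434) in MDA-MB-231 and -0.99 ± 0.23 with siEglN2-1 (adjusted p = 0.00667) and -1.12 ± 0.23 with siEglN2-2 (adjusted p = 0.00369) in 293T. Without siControl 2 or without siEglN2-1 number 3, the MDA-MB-231 call with siEglN2-1 was lost (adjusted p = 0.0573 and 0.0913). FOSL1, which encodes FRA1, a FOS protein that many carcinoma lines hold at high level, was abundant in MDA-MB-231 at 218, 222 and 223 CPM with siEglN2-1 and 221, 221 and 219.98 CPM with siEglN2-2, against 322, 323 and 313 CPM with siControl. Its log2 fold changes there were -0.53 ± 0.02 with siEglN2-1 (adjusted p = 9.42e-24) and -0.53 ± 0.02 with siEglN2-2 (adjusted p = 6.69e-24), and the groups did not overlap. In 293T FOSL1 lay near the lower limit of the test, at 0.467, 0.43 and 0.312 CPM with siEglN2-1 and 0.384, 0.611 and 0.547 CPM with siEglN2-2, against 0.76, 0.861 and 1.13 CPM with siControl. The log2 fold changes were -1.17 ± 0.30 with siEglN2-1 (adjusted p = 0.011) and -0.81 ± 0.28 with siEglN2-2 (adjusted p = 0.0481), and the siEglN2-2 call was lost in each fit that left out 1 library, with adjusted p-values between 0.0519 and 0.172, the highest without the unnumbered siControl.

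JUN, the AP-1 subunit that can drive its own promoter, fell in both lines. In MDA-MB-231 JUN had 241, 234 and 234 CPM with siEglN2-1 and 234, 241 and 233 CPM with siEglN2-2, against 289.6, 289.7 and 283 CPM with siControl. In 293T it had 168, 174 and 173 CPM with siEglN2-1 and 174, 172 and 166 CPM with siEglN2-2, against 264, 267 and 276 CPM with siControl. Its log2 fold changes were -0.28 ± 0.02 with siEglN2-1 (adjusted p = 5.49e-14) and -0.28 ± 0.02 with siEglN2-2 (adjusted p = 4.23e-14) in MDA-MB-231 and -0.65 ± 0.04 with siEglN2-1 (adjusted p = 1.15e-06) and -0.66 ± 0.04 with siEglN2-2 (adjusted p = 1.05e-06) in 293T. JUND, a JUN relative that is steadily expressed, went opposite ways in the lines. It had 178, 189 and 181 CPM with siEglN2-1 and 188, 181 and 181 CPM with siEglN2-2, against 173, 165 and 173 CPM with siControl in MDA-MB-231, where it rose. In 293T, where it fell, JUND had 39.4, 40.1 and 39.9 CPM with siEglN2-1 and 39.1, 39.4 and 40.9 CPM with siEglN2-2, against 49.8, 52.6 and 61.9 CPM with siControl. The log2 fold changes of JUND were 0.10 and 0.11 in MDA-MB-231 and -0.46 and -0.46 in 293T. The unnumbered siControl library was the highest of the 9 libraries for JUND in 293T, and the groups did not overlap with or without it. JUNB rose in MDA-MB-231, at 0.15 and 0.13 on the log2 scale. In 293T JUNB was called lower with siEglN2-1 (-0.21, adjusted p = 0.0411) and not with siEglN2-2 (-0.18, adjusted p = 0.0813, but 0.0438 without siControl 2). The siEglN2-1 call for JUNB was lost without the unnumbered siControl (adjusted p = 0.0677) and in 6 other fits that left out 1 library (adjusted p between 0.0510 and 0.121).

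ATF3, a stress-induced AP-1 partner, fell in 293T. There it had 56.2, 57.8 and 55.3 CPM with siEglN2-1 and 53.6, 54.3 and 52.5 CPM with siEglN2-2, against 65.000, 69.1 and 71.4 CPM with siControl. All 6 siEglN2 libraries lay below the controls, with log2 fold changes of -0.28 ± 0.05 with siEglN2-1 (adjusted p = 0.00122) and -0.36 ± 0.05 with siEglN2-2 (adjusted p = 0.000278). In MDA-MB-231 ATF3 had a log2 fold change of 0.13 ± 0.10 with siEglN2-1 (adjusted p = 0.326) and 0.20 ± 0.10 with siEglN2-2 (adjusted p = 0.0902), neither of them called. FOSL2, encoding FRA2, had log2 fold changes of -0.03 and -0.01 in MDA-MB-231 (adjusted p = 0.249 and 0.811). In 293T FOSL2 was called with siEglN2-1 alone (-0.36, adjusted p = 0.0478, against -0.23 and adjusted p = 0.193 with siEglN2-2), and that call was lost in 7 of the fits that left out 1 library (adjusted p between 0.0565 and 0.168).

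After KDM5A knockdown FOS, FOSB and JUNB fell in MDA-MB-231 and not in 293T. In MDA-MB-231 all 8 were called with each shRNA: FOS, FOSB, JUN and JUNB fell with both, FOSL1 and ATF3 rose with both, and FOSL2 and JUND were called in opposite directions. Of all genes, 55.3% were called with shKDM5A-1 and 59% with shKDM5A-2 there, with 15.8% lower and 16.4% higher with both. FOS had 30.4, 28.5 and 30.4 CPM with shKDM5A-1 and 10.2, 8.92 and 9.23 CPM with shKDM5A-2, against 60.3, 62.4 and 62.1 CPM with shControl. The shKDM5A-2 libraries lay below the shKDM5A-1 libraries and those below the controls, with log2 fold changes of -1.05 ± 0.05 with shKDM5A-1 (adjusted p = 1.8e-18) and -2.71 ± 0.06 with shKDM5A-2 (adjusted p = 3.25e-27). FOSB had 4.95, 5.06 and 4.51 CPM with shKDM5A-1 and 3.61, 3.49 and 3.56 CPM with shKDM5A-2, against 11.8, 11.2 and 12.4 CPM with shControl. JUNB had 97.8, 95.2 and 99.7 CPM with shKDM5A-1 and 77.4, 76.2 and 79.6 CPM with shKDM5A-2, against 144, 143 and 142 CPM with shControl. Neither gene's groups overlapped, and the log2 fold changes were -1.29 ± 0.10 with shKDM5A-1 (adjusted p = 2.34e-12) and -1.73 ± 0.11 with shKDM5A-2 (adjusted p = 5.66e-15) for FOSB and -0.55 ± 0.03 with shKDM5A-1 (adjusted p = 1.08e-15) and -0.88 ± 0.03 with shKDM5A-2 (adjusted p = 7.57e-21) for JUNB. FOSL1 rose by 0.15 and 0.30 on the log2 scale, while ATF3 had 8.38, 8.07 and 7.58 CPM with shKDM5A-1 and 11.2, 10.6 and 11.8 CPM with shKDM5A-2, against 6.61, 5.06 and 5.18 CPM with shControl, with log2 fold changes of 0.52 ± 0.11 with shKDM5A-1 (adjusted p = 0.00021) and 1.01 ± 0.11 with shKDM5A-2 (adjusted p = 1.03e-09). JUN fell with log2 fold changes of -0.15 and -0.13 (adjusted p = 3.39e-05 and 0.000394).

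In 293T no AP-1 gene was called in the same direction with both KDM5A shRNAs. FOS there had 5.18, 5.25 and 6.06 CPM with shKDM5A-1 and 3.36, 4.65 and 3.45 CPM with shKDM5A-2, against 3.68, 3.05 and 2.595 CPM with shControl. The shKDM5A-1 libraries lay above the controls and the shKDM5A-2 libraries overlapped them, with log2 fold changes of 0.83 ± 0.15 with shKDM5A-1 (adjusted p = 3.49e-05) and 0.30 ± 0.16 with shKDM5A-2 (adjusted p = 0.142). JUN had 657, 647 and 659 CPM with shKDM5A-1 and 309, 311 and 306 CPM with shKDM5A-2, against 603, 616 and 601 CPM with shControl. Its shKDM5A-1 libraries were above the controls and its shKDM5A-2 libraries far below, with log2 fold changes of 0.11 ± 0.02 with shKDM5A-1 (adjusted p = 2.17e-05) and -0.98 ± 0.02 with shKDM5A-2 (adjusted p = 4.15e-29). ATF3 followed the same order, at 0.28 and -0.63 on the log2 scale, as did JUND at 0.43 and -0.10. FOSL2 was called only with shKDM5A-2 (0.15 and -0.93 for shKDM5A-1 and shKDM5A-2). FOSL1, at up to 2.07 CPM, was called higher only with shKDM5A-2, at 0.63 ± 0.34 with shKDM5A-1 (adjusted p = 0.147) and 1.34 ± 0.31 with shKDM5A-2 (adjusted p = 0.000753).

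**Figure D2:**
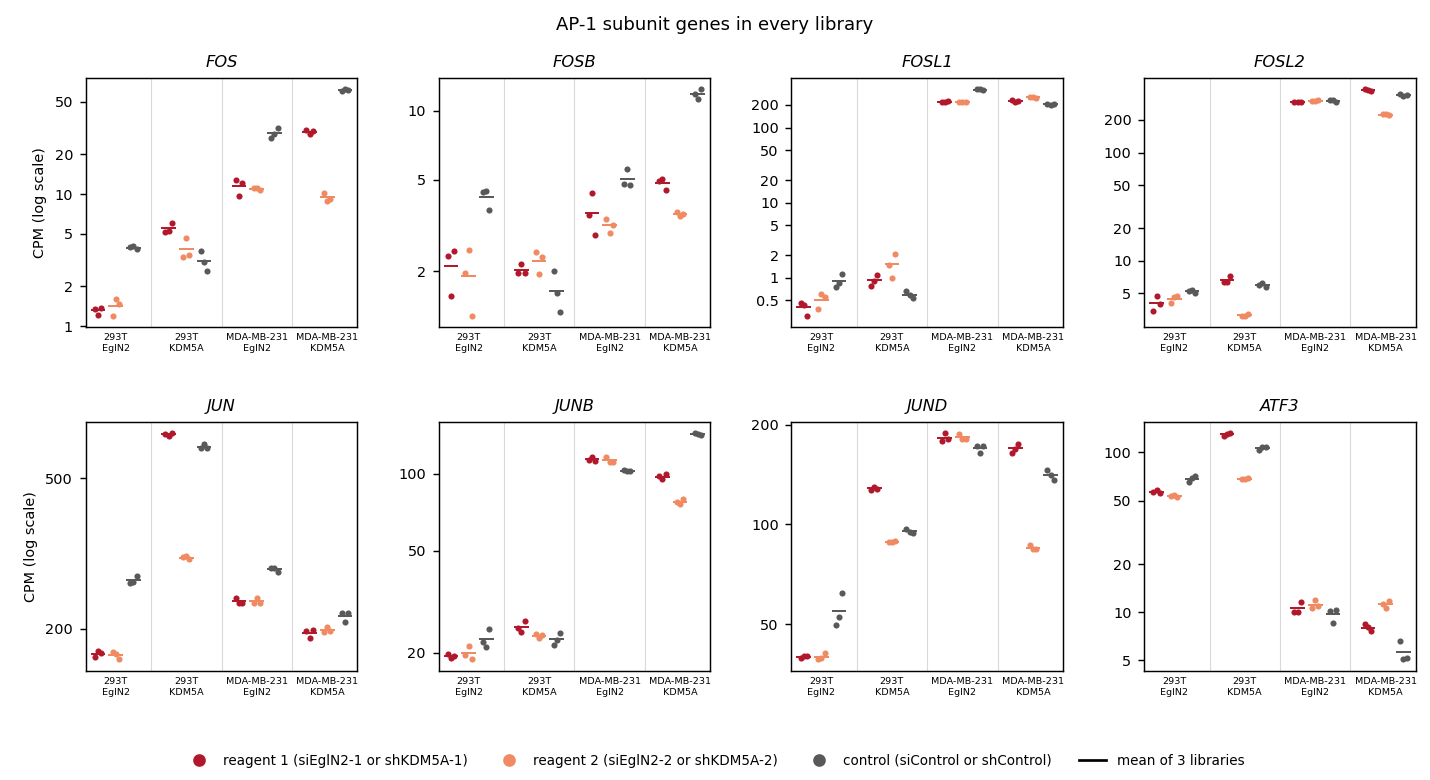
CPM on a log axis of 8 AP-1 subunit genes in all 36 libraries, 1 point a library and a bar at the group mean, with the knockdown groups left of the controls in each experiment. FOS sits lowest with shKDM5A-2 among the MDA-MB-231 KDM5A libraries, at 8.92 to 10.2 CPM against 60.3 to 62.4 CPM with shControl.

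Among the EGR and KLF factors, EGR1 fell in both lines after EglN2 knockdown and the KLF genes moved in MDA-MB-231. With both siRNAs, EGR1, KLF2, KLF6 and KLF10 fell and KLF4 rose in MDA-MB-231, 5 of 7 genes (57.1% lower and 14.3% higher, against 20.4% and 18.3% of all genes). In 293T EGR1 alone of the 7 fell with both, 14.3% against 15.5% of all genes, a share near that of all genes. KLF2, a factor best known from endothelium and lymphocytes, had 13.8, 12.9 and 16.1 CPM with siEglN2-1 and 14.8, 13.8 and 15.3 CPM with siEglN2-2, against 32.8, 28.5 and 31.4 CPM with siControl in MDA-MB-231. All 6 siEglN2 libraries lay under all 3 controls, with log2 fold changes of -1.11 ± 0.07 with siEglN2-1 (adjusted p = 9.89e-17) and -1.08 ± 0.07 with siEglN2-2 (adjusted p = 1.59e-16). In 293T KLF2 had 1.53 to 2.36 CPM in all 9 libraries, and its log2 fold changes were -0.13 ± 0.19 with siEglN2-1 (adjusted p = 0.635) and 0.14 ± 0.18 with siEglN2-2 (adjusted p = 0.589).

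EGR1, the immediate early zinc-finger factor whose CArG boxes are printed above, had 22.8, 22.4 and 22.6 CPM with siEglN2-1 and 25.1, 24.3 and 23.7 CPM with siEglN2-2, against 39.5, 37.8 and 36.2 CPM with siControl in MDA-MB-231. In 293T EGR1 had 6.83, 7.15 and 7.28 CPM with siEglN2-1 and 7.096, 6.07 and 6.93 CPM with siEglN2-2, against 8.48, 9.08 and 8.604 CPM with siControl. The siEglN2 libraries lay below the controls in both lines, with log2 fold changes of -0.75 ± 0.05 with siEglN2-1 (adjusted p = 1.08e-15) and -0.64 ± 0.05 with siEglN2-2 (adjusted p = 6.93e-14) in MDA-MB-231 and -0.30 ± 0.09 with siEglN2-1 (adjusted p = 0.0202) and -0.39 ± 0.09 with siEglN2-2 (adjusted p = 0.00625) in 293T. The 293T call with siEglN2-1 was lost without siControl 2, siEglN2-1 number 1 or siEglN2-1 number 2 (adjusted p = 0.0632, 0.0745 and 0.0563). KLF4, a factor of epithelial differentiation, rose in MDA-MB-231 by 0.21 and 0.22 on the log2 scale. KLF10, a target of TGF-beta signalling, fell there with log2 fold changes of -0.14 and -0.15, and KLF6 with -0.10 and -0.07. KLF10 had log2 fold changes of 0.11 and 0.15 in 293T, where the siEglN2-2 value was called higher (adjusted p = 0.024) and lost its call without siEglN2-2 number 2 or number 3 (adjusted p = 0.106 and 0.0585).

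With KDM5A knockdown, EGR1 was the EGR or KLF gene called higher with both shRNAs in 293T. There it had 4.41, 6.33 and 4.68 CPM with shKDM5A-1 and 6.56, 7.63 and 7.96 CPM with shKDM5A-2, against 3.78, 3.85 and 3.97 CPM with shControl. On the log2 scale these were 0.41 ± 0.14 with shKDM5A-1 (adjusted p = 0.0156) and 0.93 ± 0.13 with shKDM5A-2 (adjusted p = 2.53e-07), and without shKDM5A-1 number 2 the shKDM5A-1 value was 0.23 (adjusted p = 0.233). In MDA-MB-231 EGR1 had 22.9, 24.04 and 23.8 CPM with shKDM5A-1 and 38.6, 38.9 and 38.1 CPM with shKDM5A-2, against 23.7, 22.6 and 22.8 CPM with shControl. Only the shKDM5A-2 libraries were above the controls there, with log2 fold changes of 0.03 ± 0.06 with shKDM5A-1 (adjusted p = 0.642) and 0.74 ± 0.05 with shKDM5A-2 (adjusted p = 1.1e-13). KLF2 fell with both shRNAs in MDA-MB-231, where it had 15.5, 12.97 and 16.9 CPM with shKDM5A-1 and 9.84, 8.17 and 8.26 CPM with shKDM5A-2, against 20.5, 16.9 and 21.2 CPM with shControl. Its log2 fold changes were -0.38 ± 0.10 with shKDM5A-1 (adjusted p = 0.00254) and -1.17 ± 0.11 with shKDM5A-2 (adjusted p = 5.33e-09), and 1 shKDM5A-1 library overlapped the lowest control. KLF10 fell with both in 293T, at -0.17 and -0.18 on the log2 scale (adjusted p = 0.00015 and 8.83e-05). EGR2 was the one member called in none of the 8 contrasts against controls, at 0.179 to 1.51 CPM. EGR3, at most 1.60 CPM in every library, was called in 1 of them, lower with shKDM5A-1 in MDA-MB-231. Its log2 values there were -1.75 ± 0.56 with shKDM5A-1 (adjusted p = 0.00898) and 0.59 ± 0.41 with shKDM5A-2 (adjusted p = 0.218), and the call was lost without shControl 2 (adjusted p = 0.0534) or without shControl 3 (adjusted p = 0.0729).

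Among the ERK feedback and output genes, DUSP6, DUSP4, ETV4 and ETV5 had higher control means in MDA-MB-231 than in 293T, where DUSP6, ETV4 and ETV5 were near the lower limit of the test. Per kilobase of exon, DUSP6 averaged 69.7 ± 2.46 RPKM in siControl and 77.5 ± 1.93 RPKM in shControl libraries of MDA-MB-231, against 0.0993 ± 0.0327 and 0.128 ± 0.0512 RPKM in 293T (SD, n = 3 each). DUSP4 averaged 109 ± 0.651 and 104 ± 1.53 RPKM in MDA-MB-231, against 0.704 ± 0.0744 and 1.12 ± 0.0557 RPKM in 293T. ETV4 averaged 22.1 ± 0.121 and 19.4 ± 0.203 RPKM in MDA-MB-231, against 0.167 ± 0.0406 and 0.337 ± 0.0563 RPKM in 293T. The tables of the lines were normalized separately and no test was made between them. The means of ETV5, DUSP5, FOSL1 and IER3 were also above those of 293T, while ATF3 averaged 2.399 ± 0.25 and 1.39 ± 0.213 RPKM in MDA-MB-231, against 16.9 ± 0.799 and 26.4 ± 0.537 RPKM in 293T. SPRY4 had no row in the 293T tables and BTG2 none in the MDA-MB-231 tables, and DUSP6 did not pass the filter on low counts in the 293T EglN2 table.

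Part of this feedback and output set fell after EglN2 knockdown in MDA-MB-231: DUSP4, ETV5, SPRED1, SPRY2 and SPRY4 fell with both siRNAs and DUSP1 and DUSP5 rose, 7 of 10 genes (50% lower and 20% higher, against 20.4% and 18.3% of all genes). SPRY4 encodes an inhibitor of receptor-to-RAS signalling. It had 114, 113 and 113 CPM with siEglN2-1 and 116, 122 and 115 CPM with siEglN2-2, against 193, 192 and 189.6 CPM with siControl. For SPRY4 the log2 values were -0.76 ± 0.03 with siEglN2-1 (adjusted p = 7.05e-28) and -0.70 ± 0.02 with siEglN2-2 (adjusted p = 6.31e-27), and the groups did not overlap. DUSP4, a nuclear phosphatase of ERK, had 652, 659 and 650.3 CPM with siEglN2-1 and 654, 663 and 669 CPM with siEglN2-2, against 787, 789.7 and 796 CPM with siControl. For DUSP4 the log2 fold changes were -0.28 ± 0.02 with siEglN2-1 (adjusted p = 1.48e-17) and -0.26 ± 0.02 with siEglN2-2 (adjusted p = 1.51e-16). ETV5, an ETS factor induced by ERK, had log2 fold changes of -0.30 and -0.29, and its relative ETV4 of -0.07 and -0.03, neither called (adjusted p = 0.105 and 0.463). DUSP6, the cytoplasmic ERK phosphatase, had 324, 304 and 309.6 CPM with siEglN2-1 and 312, 307 and 321 CPM with siEglN2-2, against 329, 309.8 and 330.1 CPM with siControl. These libraries overlapped, and the log2 fold changes of DUSP6 were -0.05 ± 0.03 with siEglN2-1 (adjusted p = 0.146) and -0.04 ± 0.03 with siEglN2-2 (adjusted p = 0.188). Without siControl 2 both were called (-0.08 and -0.07, adjusted p = 0.0227 and 0.0314), as was that of siEglN2-1 without siEglN2-1 number 1 (-0.07, adjusted p = 0.0346).

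DUSP1, a phosphatase of JNK and p38 as well as ERK, moved in opposite directions in the lines after EglN2 knockdown. In MDA-MB-231 it had 78.1, 79.2 and 83.7 CPM with siEglN2-1 and 77.6, 76.3 and 76.7 CPM with siEglN2-2, against 62.2, 60.6 and 61.7 CPM with siControl. In 293T DUSP1 had 15.7, 16.7 and 16.7 CPM with siEglN2-1 and 16.4, 15.8 and 15.3 CPM with siEglN2-2, against 22.1, 21.9 and 25.1 CPM with siControl. The siEglN2 libraries lay above the controls in MDA-MB-231 and below them in 293T, with log2 fold changes of 0.39 ± 0.04 with siEglN2-1 (adjusted p = 9.51e-12) and 0.32 ± 0.04 with siEglN2-2 (adjusted p = 1.18e-09) in MDA-MB-231 and of -0.49 ± 0.07 with siEglN2-1 (adjusted p = 0.000352) and -0.54 ± 0.07 with siEglN2-2 (adjusted p = 0.000209) in 293T. DUSP4 fell in 293T as well, where it had 3.78, 2.798 and 2.72 CPM with siEglN2-1 and 2.54, 2.77 and 3.69 CPM with siEglN2-2, against 4.601, 5.68 and 5.06 CPM with siControl. Its log2 fold changes in 293T were -0.72 ± 0.17 with siEglN2-1 (adjusted p = 0.00841) and -0.77 ± 0.17 with siEglN2-2 (adjusted p = 0.00622). SPRY2, another inhibitor of RAS signalling, fell in MDA-MB-231, at -0.08 and -0.10 on the log2 scale (adjusted p = 0.0255 and 0.00583), and in 293T, at -0.35 and -0.43 (adjusted p = 0.00344 and 0.00115). The MDA-MB-231 call of SPRY2 with siEglN2-1 was lost without siControl 3, siEglN2-1 number 1 or siEglN2-1 number 2 (adjusted p = 0.104, 0.0532 and 0.133). DUSP5 (-0.39 and -0.28), ETV4 (-1.19 and -0.59) and ETV5 (-1.29 and -0.87 with siEglN2-1 and siEglN2-2) were called lower in 293T with siEglN2-1 alone. ETV4 and ETV5 stayed under 1 CPM there, and the ETV4 call was lost without the unnumbered siControl (adjusted p = 0.0824) or siEglN2-1 number 2 (adjusted p = 0.0835). The ETV5 call was lost without siControl 1, siControl 2, siEglN2-1 number 1 or siEglN2-1 number 2 (adjusted p between 0.0575 and 0.118), and the DUSP5 call without siEglN2-1 number 1 or number 3 (adjusted p = 0.0601 and 0.0568). SPRED1, which encodes a membrane inhibitor of RAS signalling, had 9.04, 8.31 and 9.46 CPM with siEglN2-1 and 10.4, 7.65 and 9.76 CPM with siEglN2-2, against 12.5, 14.1 and 8.84 CPM with siControl in 293T, where the lowest siControl library was the unnumbered one. Its log2 fold changes there, -0.41 ± 0.16 with siEglN2-1 (adjusted p = 0.0733) and -0.37 ± 0.16 with siEglN2-2 (adjusted p = 0.105), were not called with that library, while without it they were -0.58 and -0.54 (adjusted p = 0.000167 and 0.000324).

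After KDM5A knockdown 7 of the 10 feedback and output genes fell with both shRNAs in MDA-MB-231: DUSP4, DUSP5, DUSP6, ETV4, SPRED1, SPRY2 and SPRY4, 70% against 15.8% of all genes. DUSP6 had 221, 219.5 and 223 CPM with shKDM5A-1 and 150.5, 147 and 150.4 CPM with shKDM5A-2, against 349, 362 and 366 CPM with shControl. The shKDM5A-2 libraries were lowest and no library overlapped another group, with log2 fold changes of -0.70 ± 0.03 with shKDM5A-1 (adjusted p = 8.23e-21) and -1.27 ± 0.03 with shKDM5A-2 (adjusted p = 1.11e-27). SPRY4 had 95.7, 98.1 and 92.3 CPM with shKDM5A-1 and 98.3, 99.8 and 97.1 CPM with shKDM5A-2, against 141, 140.1 and 138 CPM with shControl. SPRY2 had 73.9, 71.1 and 75.2 CPM with shKDM5A-1 and 43.7, 42.4 and 45.5 CPM with shKDM5A-2, against 79.2, 82.3 and 82.2 CPM with shControl. The log2 fold changes were -0.55 ± 0.03 with shKDM5A-1 (adjusted p = 1.35e-15) and -0.51 ± 0.03 with shKDM5A-2 (adjusted p = 7.83e-15) for SPRY4 and -0.15 ± 0.04 with shKDM5A-1 (adjusted p = 0.00144) and -0.89 ± 0.04 with shKDM5A-2 (adjusted p = 1.76e-18) for SPRY2. DUSP4 had 631, 628 and 615 CPM with shKDM5A-1 and 537, 536 and 526 CPM with shKDM5A-2, against 768, 759 and 746 CPM with shControl, with log2 fold changes of -0.28 ± 0.02 with shKDM5A-1 (adjusted p = 1.65e-12) and -0.51 ± 0.02 with shKDM5A-2 (adjusted p = 3.56e-19). Smaller falls were seen for DUSP5 (-0.15 and -0.15), ETV4 (-0.38 and -0.28) and SPRED1 (-0.40 and -0.18), while ETV5 was called lower with shKDM5A-1 and higher with shKDM5A-2 (-0.14 and 0.18). DUSP2, a nuclear phosphatase known from lymphocytes, was called higher with both at 2.02 ± 0.46 with shKDM5A-1 (adjusted p = 0.000334) and 1.499 ± 0.49 with shKDM5A-2 (adjusted p = 0.00899). It had at most 1.09 CPM in those libraries against at most 0.312 CPM in the controls, and the shKDM5A-2 call was lost without shControl 1 (adjusted p = 0.0581).

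In 293T the 2 feedback and output genes called with both KDM5A shRNAs were the ERK outputs ETV4 and ETV5. Both were higher, or 22.2% of the 9 tested against 7.33% of all genes. No DUSP, SPRY or SPRED member was called with both shRNAs there. ETV4 had 2.68, 1.64 and 2.25 CPM with shKDM5A-1 and 3.31, 4.28 and 3.82 CPM with shKDM5A-2, against 1.43, 1.19 and 1.03 CPM with shControl. ETV5 had 1.01, 1.36 and 1.21 CPM with shKDM5A-1 and 2.1002, 1.88 and 1.06 CPM with shKDM5A-2, against 0.511, 0.466 and 0.832 CPM with shControl. All shKDM5A libraries lay above the controls, with log2 fold changes of 0.85 ± 0.22 with shKDM5A-1 (adjusted p = 0.00234) and 1.64 ± 0.21 with shKDM5A-2 (adjusted p = 3.5e-08) for ETV4 and 0.99 ± 0.33 with shKDM5A-1 (adjusted p = 0.0157) and 1.47 ± 0.31 with shKDM5A-2 (adjusted p = 0.000259) for ETV5. Both genes are at few CPM here, exons of ETV4 overlap those of DHX8 on the opposite strand, and the strand setting of the counting is not given in the sources used here. The ETV5 call with shKDM5A-1 was lost without shControl 1, shControl 2 or shKDM5A-1 number 2 (adjusted p = 0.0545, 0.0809 and 0.0663). DUSP1 rose with shKDM5A-1 in both lines and not with shKDM5A-2. The DUSP1 values were 0.74 and 0.01 on the log2 scale in MDA-MB-231 (adjusted p = 9.78e-18 and 0.863) and 0.67 and -0.11 in 293T (adjusted p = 1.08e-12 and 0.131).

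**Figure D3:**
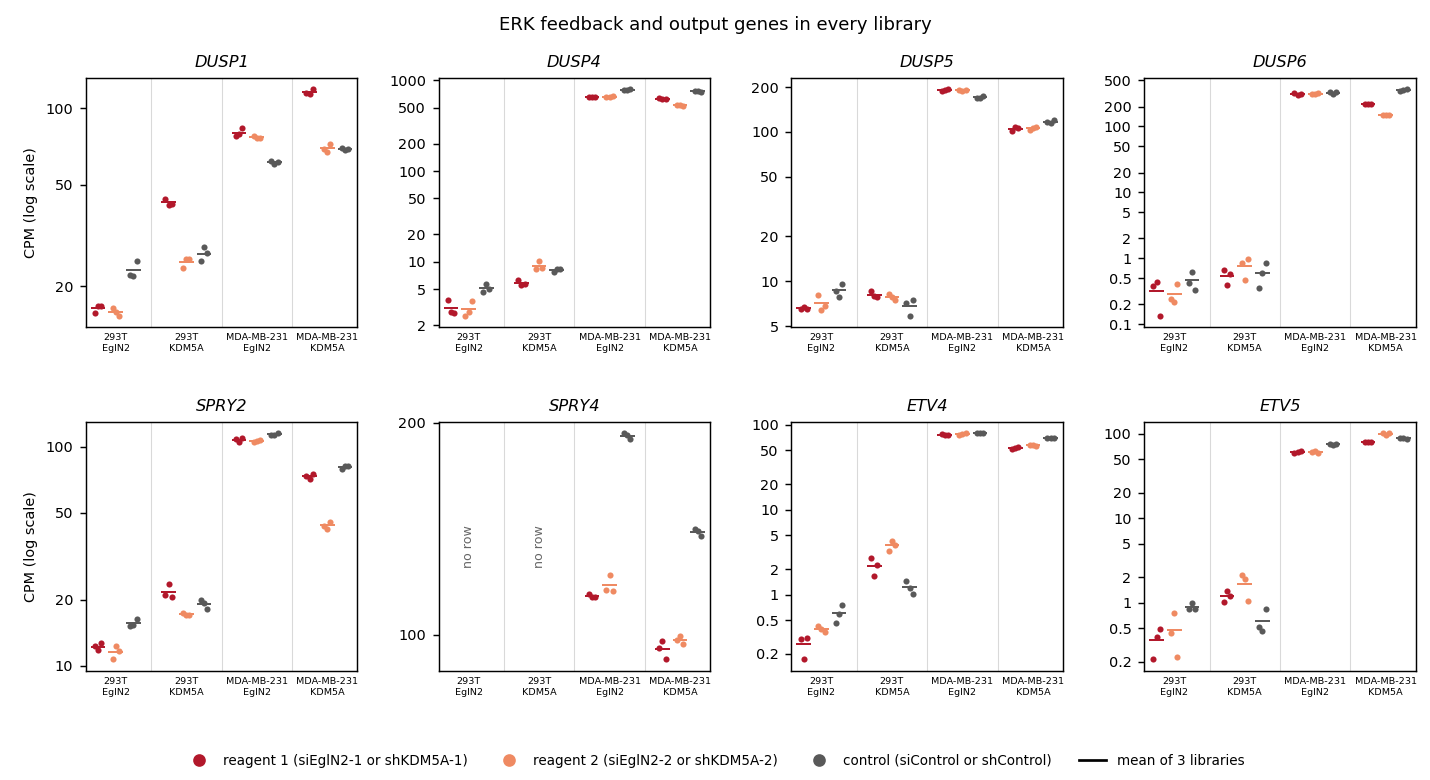
CPM on a log axis of 8 ERK feedback and output genes in all 36 libraries, 1 point a library and a bar at the group mean, with the knockdown groups left of the controls in each experiment. DUSP6 lies between 147 and 223 CPM with shKDM5A in MDA-MB-231, against 349 to 366 CPM with shControl, and SPRY4 has no row in the 293T tables.

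The other immediate early genes moved in both directions after EglN2 knockdown. In MDA-MB-231, 7 of 14 fell with both siRNAs (BTG1, IER2, IER3, IER5, RHOB, SRF and ZFP36L2) and 4 rose (NR4A2, SGK1, TRIB1 and ZFP36L1), or 50% lower and 28.6% higher against 20.4% and 18.3% of all genes. In 293T, 6 of 15 fell (BTG2, IER2, IER5, MYC, SRF and ZFP36L2) and 2 rose (RHOB and ZFP36L1), or 40% lower and 13.3% higher against 15.5% and 14.6% of all genes. ZFP36L2, an RNA-binding protein that speeds the decay of AU-rich transcripts, had 37.6, 37.3 and 38.1 CPM with siEglN2-1 and 37.1, 37.99 and 35.1 CPM with siEglN2-2, against 65.2, 65.95 and 64.9 CPM with siControl in MDA-MB-231. In 293T it had 49.4, 47.7 and 49.7 CPM with siEglN2-1 and 52.5, 51.2 and 47.4 CPM with siEglN2-2, against 68.97, 72.6 and 70.96 CPM with siControl. Neither line's groups overlapped, and the log2 fold changes were -0.80 and -0.83 in MDA-MB-231 and -0.53 and -0.49 in 293T. Its relative ZFP36L1 rose in both lines. ZFP36L1 had 183, 187 and 185 CPM with siEglN2-1 and 184, 193 and 187 CPM with siEglN2-2, against 167, 164 and 165 CPM with siControl in MDA-MB-231. In 293T ZFP36L1 had 42.6, 39.6 and 40.9 CPM with siEglN2-1 and 41.1, 43.9 and 39.6 CPM with siEglN2-2, against 23.9, 22.4 and 21.4 CPM with siControl. The log2 fold changes of ZFP36L1 were 0.16 ± 0.02 with siEglN2-1 (adjusted p = 3.04e-08) and 0.19 ± 0.02 with siEglN2-2 (adjusted p = 8.08e-10) in MDA-MB-231 and 0.86 ± 0.06 with siEglN2-1 (adjusted p = 4.67e-06) and 0.88 ± 0.06 with siEglN2-2 (adjusted p = 3.87e-06) in 293T. The third relative, ZFP36, was called in 1 of the 4 EglN2 contrasts, with log2 fold changes of -0.19 and -0.07 in MDA-MB-231 and -0.19 and -0.30 in 293T, and that call (siEglN2-1 in MDA-MB-231) was lost without siControl 1 (adjusted p = 0.0703).

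MYC, the growth-driving transcription factor, fell in 293T and was not called in MDA-MB-231 after EglN2 knockdown. It had 220.1, 215 and 222 CPM with siEglN2-1 and 223, 215 and 220.2 CPM with siEglN2-2, against 212, 211 and 216 CPM with siControl in MDA-MB-231. In 293T MYC had 235, 229 and 236 CPM with siEglN2-1 and 231, 233 and 235 CPM with siEglN2-2, against 355, 353 and 362 CPM with siControl. The 293T groups did not overlap, and its log2 fold changes were 0.04 ± 0.02 with siEglN2-1 (adjusted p = 0.174) and 0.04 ± 0.02 with siEglN2-2 (adjusted p = 0.121) in MDA-MB-231 and -0.61 ± 0.03 with siEglN2-1 (adjusted p = 8.88e-07) and -0.61 ± 0.03 with siEglN2-2 (adjusted p = 9.27e-07) in 293T. BTG2, an anti-proliferative gene that p53 induces, had 17.4, 18.7 and 17.2 CPM with siEglN2-1 and 16.9, 17.1 and 17.5 CPM with siEglN2-2, against 32.5, 32.5 and 32.1 CPM with siControl in 293T, with log2 fold changes of -0.86 ± 0.05 with siEglN2-1 (adjusted p = 1.4e-06) and -0.92 ± 0.05 with siEglN2-2 (adjusted p = 1.04e-06). SGK1, a kinase that serum and glucocorticoids induce, had 40.5, 39.3 and 41.8 CPM with siEglN2-1 and 40.6, 42.7 and 38.9 CPM with siEglN2-2, against 24.5, 27.4 and 26.2 CPM with siControl in MDA-MB-231. TRIB1, a pseudokinase that leads C/EBP proteins to degradation, had 36.97, 38.4 and 38.04 CPM with siEglN2-1 and 38.9, 38.98 and 37.2 CPM with siEglN2-2, against 25.5, 26.1 and 25.6 CPM with siControl there. The log2 fold changes of SGK1 were 0.64 and 0.65 in MDA-MB-231, where it rose, and -0.08 and -0.15 in 293T, where it was not called. TRIB1 stood at 0.55 and 0.57 in MDA-MB-231, where it rose, and at -0.12 and -0.10 in 293T, where it was not called.

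SRF, the factor that binds the CArG boxes printed above, fell in both lines after EglN2 knockdown. It had 116, 117 and 109 CPM with siEglN2-1 and 113, 112 and 118 CPM with siEglN2-2, against 138, 137 and 133 CPM with siControl in MDA-MB-231. In 293T SRF had 72.7, 73.9 and 71.7 CPM with siEglN2-1 and 73.98, 71.1 and 71.2 CPM with siEglN2-2, against 101, 105 and 98.9 CPM with siControl. The groups did not overlap in either line, and the log2 fold changes were -0.26 ± 0.03 with siEglN2-1 (adjusted p = 1.03e-09) and -0.25 ± 0.03 with siEglN2-2 (adjusted p = 1.7e-09) in MDA-MB-231 and -0.48 ± 0.04 with siEglN2-1 (adjusted p = 1.74e-05) and -0.50 ± 0.04 with siEglN2-2 (adjusted p = 1.5e-05) in 293T. IER2 and IER5, 2 short-lived nuclear proteins of the immediate early class, fell in both lines. With siEglN2-1 and siEglN2-2, the log2 fold changes of IER2 were -0.40 and -0.40 in MDA-MB-231 and -0.27 and -0.18 in 293T. Those of IER5 were -0.30 and -0.29 in MDA-MB-231 and -0.44 and -0.42 in 293T. The 293T siEglN2-2 call of IER2 (adjusted p = 0.0392) was lost without any 1 of the 6 siEglN2 libraries (adjusted p between 0.0582 and 0.126). IER3, an apoptosis regulator that ERK phosphorylates, fell in MDA-MB-231 (-0.29 and -0.32) and had log2 fold changes of -0.21 and -0.09 in 293T, not called (adjusted p = 0.0648 and 0.387), though siEglN2-1 was called without siControl 1 (-0.26, adjusted p = 0.0363). RHOB, a short-lived endosomal GTPase, fell in MDA-MB-231 (-0.20 and -0.25) and rose in 293T (0.16 and 0.18), where the siEglN2-1 call was lost without siEglN2-1 number 1 or number 2 (adjusted p = 0.0522 and 0.0596). NR4A2, an orphan nuclear receptor, rose in MDA-MB-231 (0.31 and 0.32), and both calls were lost without siControl 1 (adjusted p = 0.109 and 0.0816), as was the siEglN2-1 call without siEglN2-1 number 3 (adjusted p = 0.0880). NR4A1 was called in 1 of the 4 EglN2 contrasts, lower with siEglN2-1 in 293T (-0.22, adjusted p = 0.0287), a call lost without siControl 1, siEglN2-1 number 1 or siEglN2-1 number 2 (adjusted p = 0.0823, 0.115 and 0.0810). BTG1, a relative of BTG2, fell in MDA-MB-231, at -0.09 and -0.13 on the log2 scale, and was not called in 293T (-0.05 and -0.09).

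With KDM5A knockdown in MDA-MB-231, 6 of 14 of these genes fell with both shRNAs (BTG1, IER3, NR4A2, RHOB, SGK1 and ZFP36L1) and SRF rose, or 42.9% lower and 7.14% higher against 15.8% and 16.4% of all genes. IER3 had 544, 535 and 566 CPM with shKDM5A-1 and 321, 314 and 306 CPM with shKDM5A-2, against 755, 724 and 734 CPM with shControl. NR4A2 had 1.85, 1.67 and 1.003 CPM with shKDM5A-1 and 4.02, 4.57 and 2.91 CPM with shKDM5A-2, against 6.47, 7.43 and 7.62 CPM with shControl. The shKDM5A-2 libraries were lowest for IER3 and the shKDM5A-1 libraries lowest for NR4A2, all below the controls. The log2 fold changes were -0.43 ± 0.02 with shKDM5A-1 (adjusted p = 7.13e-16) and -1.23 ± 0.03 with shKDM5A-2 (adjusted p = 5.36e-28) for IER3 and -2.25 ± 0.18 with shKDM5A-1 (adjusted p = 9.4e-12) and -0.91 ± 0.15 with shKDM5A-2 (adjusted p = 7.42e-06) for NR4A2. RHOB had 43.5, 37.6 and 40.9 CPM with shKDM5A-1 and 35.97, 35.2 and 33.1 CPM with shKDM5A-2, against 52.9, 57.8 and 56.2 CPM with shControl, with log2 fold changes of -0.45 ± 0.05 with shKDM5A-1 (adjusted p = 4.43e-09) and -0.68 ± 0.05 with shKDM5A-2 (adjusted p = 7.75e-13). SGK1 fell with log2 fold changes of -0.37 and -0.27, BTG1 with -0.29 and -0.15 and ZFP36L1 with -0.11 and -0.18. SRF rose by 0.18 and 0.16 on the log2 scale (adjusted p = 7.37e-05 and 0.000474). In 293T, IER2 (0.16 and 0.25) and IER3 (0.25 and 0.18) rose with both shRNAs (13.3% of 15, against 7.33% of all genes), and the shKDM5A-2 value of IER3 lay at the threshold (adjusted p = 0.0496), with 1 library at the level of the highest control. That call was lost in 7 of the fits that left out 1 library (adjusted p between 0.0542 and 0.230). BTG2 rose there with shKDM5A-2, at -0.12 ± 0.07 with shKDM5A-1 (adjusted p = 0.128) and 0.73 ± 0.06 with shKDM5A-2 (adjusted p = 1.19e-12), as did IER5 (0.05 and 0.42). Without shKDM5A-1 number 3, BTG2 was called lower with shKDM5A-1 (-0.21, adjusted p = 0.0142).

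No member was called between the 2 siRNAs to EglN2. Between siEglN2-2 and siEglN2-1, edgeR called 0 members in MDA-MB-231 and 0 in 293T, and 0 members had an unadjusted p under 0.05 in either line. DESeq2 also called 0 members in each line. Over all genes, 1 gene in MDA-MB-231 (0.00662%) and 0 genes in 293T (0%) were called, and 6.22% and 1.57% of all genes had an unadjusted p under 0.05. Members' log2 differences between the siRNAs ran from -0.22 to 0.44 in MDA-MB-231 and from -0.31 to 0.60 in 293T.

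The 2 shRNAs to KDM5A differed at 32 members in MDA-MB-231 and 23 in 293T. Between shKDM5A-2 and shKDM5A-1 in MDA-MB-231, 11 of 39 members were higher and 21 lower, where 26.9% and 29.7% of all genes were. In 293T 7 of 39 were higher and 16 lower, where 24.3% and 25% of all genes were. The median member log2 difference was -0.23 in MDA-MB-231 and -0.11 in 293T. The differences of FOS at -1.66 ± 0.07 (adjusted p = 8.63e-20) and NR4A2 at 1.34 ± 0.20 (adjusted p = 1.59e-06) were among the widest in MDA-MB-231, as was that of EGR3 at 2.34 ± 0.51 (adjusted p = 0.00025), which rests on at most 0.863 CPM. KDM5A itself was 0.22 higher on the log2 scale with shKDM5A-2 than with shKDM5A-1 in 293T (adjusted p = 0.000524) and 0.16 higher in MDA-MB-231 (adjusted p = 0.0636). The members' summed CPM was 3635 to 3657 with shKDM5A-2 and 4469 to 4534 with shKDM5A-1, against 4967 to 5030 with shControl, in MDA-MB-231. In 293T it was 1619 to 1633 with shKDM5A-2 and 2450 to 2461 with shKDM5A-1, against 2120 to 2150 with shControl.

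Of the 8 genes called in opposite directions in each line, JUND, KLF6 and ZFP36L2 are in both sets, and each was called lower with shKDM5A-2 and higher with shKDM5A-1. How many of all genes were called oppositely in both lines was not counted, nor was the split of such calls by direction. The overlap and the shared direction of these members are therefore descriptions only. JUND had 86.9, 84.2 and 84.4 CPM with shKDM5A-2 and 165, 169 and 176 CPM with shKDM5A-1, against 146, 141 and 137 CPM with shControl in MDA-MB-231. In 293T JUND had 88.3, 88.4 and 89.2 CPM with shKDM5A-2 and 128, 129.6 and 128 CPM with shKDM5A-1, against 96.99, 94.8 and 94.02 CPM with shControl. The shKDM5A-1 libraries were highest, the controls in the middle and the shKDM5A-2 libraries lowest in both lines. The log2 difference of shKDM5A-2 over shKDM5A-1 was -0.997 ± 0.03 (adjusted p = 5.32e-22) in MDA-MB-231 and -0.54 ± 0.03 (adjusted p = 2.74e-17) in 293T. KLF6, a zinc-finger growth regulator, had 155, 155 and 158 CPM with shKDM5A-2 and 245, 249.7 and 244 CPM with shKDM5A-1, against 209, 198 and 208 CPM with shControl in MDA-MB-231. In 293T KLF6 had 32.6, 32.1 and 33.3 CPM with shKDM5A-2 and 52.9, 58.2 and 54.5 CPM with shKDM5A-1, against 50.1, 47.9 and 48.3 CPM with shControl. Its log2 difference was -0.66 ± 0.03 (adjusted p = 2.41e-19) in MDA-MB-231 and -0.76 ± 0.05 (adjusted p = 3.92e-16) in 293T. ZFP36L2 had 50.4, 50.4 and 53.04 CPM with shKDM5A-2 and 71.6, 74.4 and 71.7 CPM with shKDM5A-1, against 55.8, 61.5 and 59.4 CPM with shControl in MDA-MB-231. In 293T ZFP36L2 had 48.1, 51.2 and 47.01 CPM with shKDM5A-2 and 67.7, 67.1 and 69.6 CPM with shKDM5A-1, against 54.3, 54.4 and 55.04 CPM with shControl. The order of the groups was the same as for JUND, with log2 differences of -0.50 ± 0.04 (adjusted p = 5.45e-12) in MDA-MB-231 and -0.48 ± 0.04 (adjusted p = 9.39e-13) in 293T.

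In 293T the other 5 such genes were ATF3, JUN, MYC, RHOB and TRIB1, all lower with shKDM5A-2 and higher with shKDM5A-1. MYC had 297, 293 and 297 CPM with shKDM5A-2 and 482, 481 and 484 CPM with shKDM5A-1, against 395, 396 and 385 CPM with shControl. RHOB had 166, 167 and 164 CPM with shKDM5A-2 and 273, 267 and 270.3 CPM with shKDM5A-1, against 221, 218 and 210.02 CPM with shControl. The groups stood in the order seen for JUND, with log2 differences of shKDM5A-2 over shKDM5A-1 of -0.71 ± 0.02 (adjusted p = 3.76e-25) for MYC and -0.71 ± 0.03 (adjusted p = 6.27e-23) for RHOB. TRIB1 had 27.2, 28.1 and 26.5 CPM with shKDM5A-2 and 40.9, 43.96 and 42.97 CPM with shKDM5A-1, against 36.9, 35.7 and 36.6 CPM with shControl, and ATF3 had 68.4, 67.9 and 69.6 CPM with shKDM5A-2 and 127, 129.8 and 132 CPM with shKDM5A-1, against 104, 108 and 108 CPM with shControl. JUN stood at -1.09 ± 0.02 (adjusted p = 4.49e-31), and FOSL2, not called with shKDM5A-1, at -1.09 ± 0.13 (adjusted p = 4.32e-09).

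In MDA-MB-231 the other 5 were ETV5, FOSL2, IER5, KLF10 and ZFP36. FOSL2 had 227, 226 and 221 CPM with shKDM5A-2 and 384, 376 and 374 CPM with shKDM5A-1, against 346, 337 and 339 CPM with shControl. IER5 had 96.6, 102 and 96.2 CPM with shKDM5A-2 and 124, 119 and 128 CPM with shKDM5A-1, against 112, 111 and 113 CPM with shControl. Both were lower with shKDM5A-2 and higher with shKDM5A-1, as was ZFP36, at -0.48 ± 0.08 with shKDM5A-2 (adjusted p = 1.76e-06) and 0.18 ± 0.07 with shKDM5A-1 (adjusted p = 0.0247). The shKDM5A-1 call of ZFP36 was lost without shControl 1, shControl 2, shKDM5A-1 number 1 or shKDM5A-1 number 2 (adjusted p between 0.0590 and 0.0862). ETV5 and KLF10 went the other way, higher with shKDM5A-2 and lower with shKDM5A-1. ETV5 had 102, 96.5 and 102 CPM with shKDM5A-2 and 80.9, 80.5 and 79.5 CPM with shKDM5A-1, against 89.7, 89.7 and 85.6 CPM with shControl. KLF10 had 93.8, 93.6 and 98.5 CPM with shKDM5A-2 and 78.1, 75.95 and 76.1 CPM with shKDM5A-1, against 80.96, 82.6 and 83.7 CPM with shControl, and its shKDM5A-1 call was lost without shControl 3 (adjusted p = 0.0605).

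**Figure D4:**
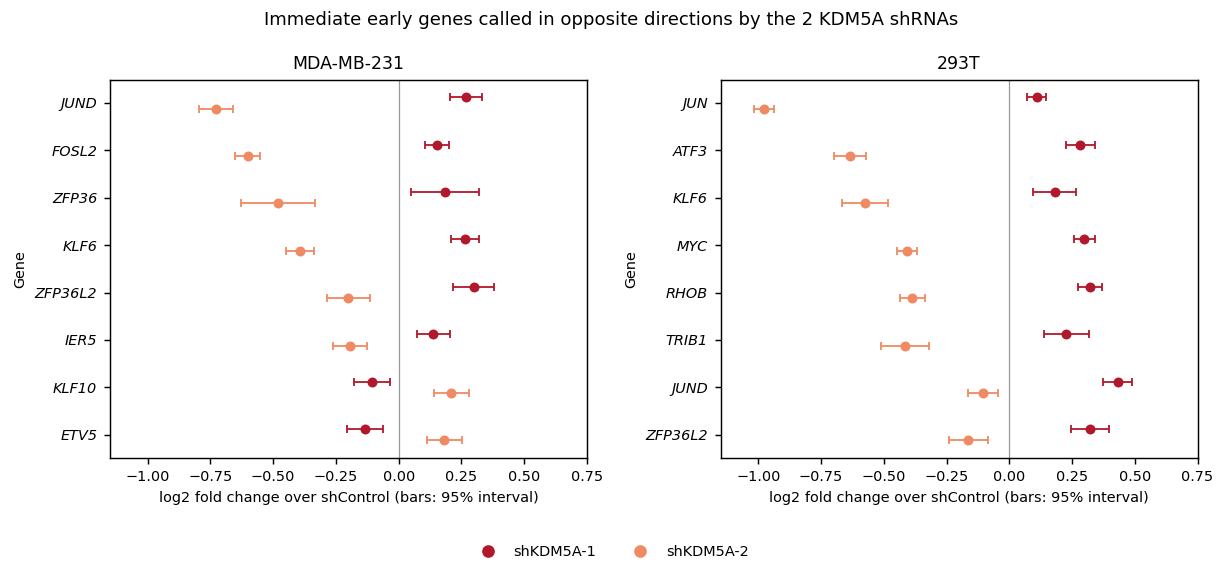
Log2 fold change over shControl (horizontal axis) of the 8 genes in each line that shKDM5A-1 and shKDM5A-2 called in opposite directions, with bars for the 95% interval. In 293T JUN lies at 0.11 with shKDM5A-1 and at -0.98 with shKDM5A-2, and all 8 genes there are right of 0 with shKDM5A-1.

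Whether the EglN2 response itself differed between the lines was tested with the mean of both siRNAs over siControl, MDA-MB-231 minus 293T. The knockdown was not equal: EGLN2 itself was at -0.70 ± 0.08 (adjusted p = 5.86e-06), with the deeper fall in MDA-MB-231. The difference between lines was called positive for 16 of 38 members and negative for 7, against 17.2% and 13.9% of 14579 genes, with a member median of 0.26 against 0.02 for all genes. Among AP-1 genes it was positive for JUN, JUNB, JUND, ATF3 and FOSL2 and negative for none, with JUND at 0.57 ± 0.07 (adjusted p = 6.55e-06), ATF3 at 0.49 ± 0.09 (adjusted p = 0.000353) and JUN at 0.38 ± 0.04 (adjusted p = 1.05e-06). FOS, which fell in each line, had no called difference, at 0.16 ± 0.15 (adjusted p = 0.438). Among feedback and output genes it was positive for DUSP4, DUSP5, ETV4, ETV5, SPRY2 and DUSP1, the last at 0.88 ± 0.07 (adjusted p = 3.4e-08). The difference for ETV4 rests on under 1 CPM in 293T, and its call was lost without the unnumbered siControl (adjusted p = 0.147), without siControl 2 (adjusted p = 0.0524) and without siEglN2-1 number 2 (adjusted p = 0.0751). The ETV5 call was lost without siControl 2, siEglN2-1 number 1 or siEglN2-2 number 3 of 293T (adjusted p between 0.0572 and 0.0658) and the FOSL2 call without siControl 2 or siEglN2-1 number 1 of 293T (adjusted p = 0.0684 and 0.0827).

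Other wide differences of the EglN2 response were those of KLF2 at -1.11 ± 0.17 (adjusted p = 6.5e-05), SGK1 at 0.76 ± 0.11 (adjusted p = 2.63e-05), ZFP36L1 at -0.69 ± 0.05 (adjusted p = 4.44e-08), TRIB1 at 0.68 ± 0.07 (adjusted p = 7.95e-07) and MYC at 0.66 ± 0.04 (adjusted p = 7.03e-10). KLF2 fell in MDA-MB-231 only, SGK1 and TRIB1 rose in MDA-MB-231 only, MYC fell in 293T only, and ZFP36L1 rose more in 293T. RHOB was at -0.39 ± 0.05 (adjusted p = 8.97e-06), falling in MDA-MB-231 and rising in 293T. EGR1 was at -0.34 ± 0.08 (adjusted p = 0.00245) and ZFP36L2 at -0.29 ± 0.05 (adjusted p = 0.000341), both with the deeper fall in MDA-MB-231. With siEglN2-2 alone the EGR1 difference was not called (-0.24, adjusted p = 0.0793), nor was that of KLF4 (0.27, adjusted p = 0.06). Without the unnumbered siControl of 293T a difference was called at SPRED1 (0.38, adjusted p = 0.000747) and at IER3 (-0.23, adjusted p = 0.00344), which were at 0.22 ± 0.13 (adjusted p = 0.214) and -0.15 ± 0.06 (adjusted p = 0.0681) with it. The paired plot of both lines gives the 23 genes with a called difference. The members' summed CPM was 4775 to 4810 with siEglN2 against 5397 to 5428 with siControl in MDA-MB-231, and 1144 to 1166 against 1472 to 1533 in 293T.

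**Figure D5:**
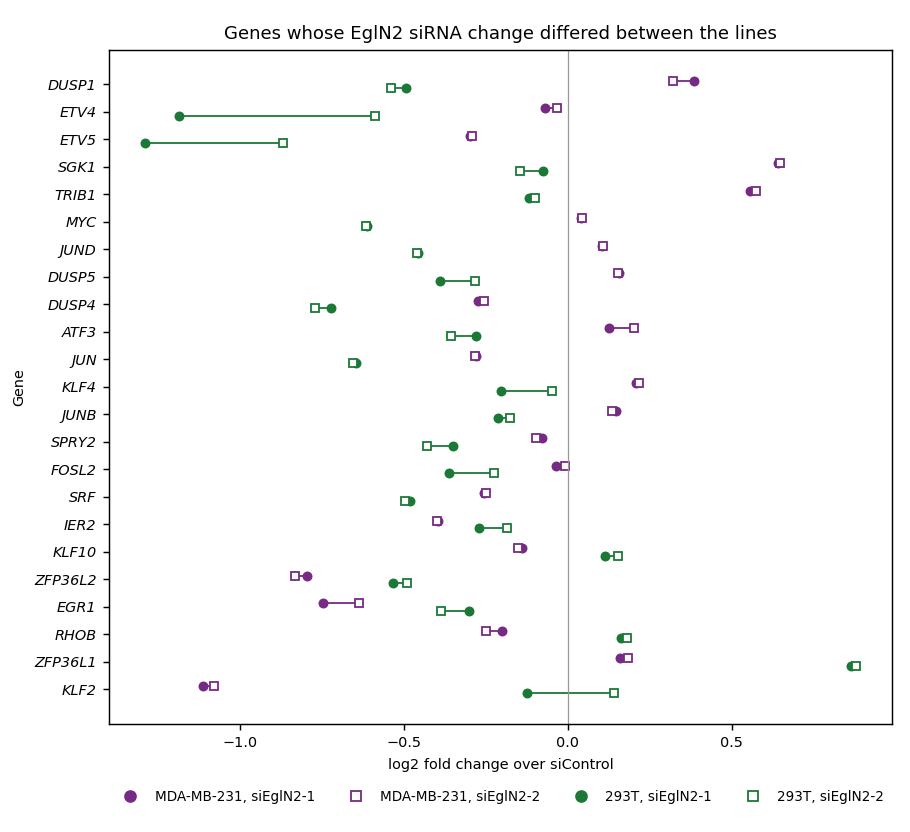
Log2 fold change over siControl (horizontal axis) of the 23 genes whose EglN2 response differed between the lines, MDA-MB-231 above 293T for each gene, circles for siEglN2-1 and open squares for siEglN2-2. DUSP1 is right of 0 in MDA-MB-231 (0.39 and 0.32) and left of 0 in 293T (-0.49 and -0.54).

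The KDM5A response differed between the lines at 28 of 38 members, 7 positive and 21 negative for MDA-MB-231 minus 293T, against 22.7% and 22% of 14767 genes. The member median was -0.28 against 0.01 for all genes. KDM5A itself was at -0.31 ± 0.06 (adjusted p = 8.42e-05), with the deeper fall in MDA-MB-231. FOS had the most negative difference, -2.44 ± 0.12 (adjusted p = 6.49e-19), followed by FOSB at -1.88 ± 0.18 (adjusted p = 4.02e-11), NR4A2 at -1.68 ± 0.23 (adjusted p = 1.65e-07) and ETV4 at -1.58 ± 0.16 (adjusted p = 1.2e-10). FOS, FOSB and NR4A2 fell with both shRNAs in MDA-MB-231, and ETV4 fell there and rose in 293T. The responses of ETV5 (-1.20), DUSP6 (-1.09), IER3 (-1.05), JUNB (-0.82), FOSL1 (-0.77), SGK1 (-0.65), SPRY2 (-0.54) and RHOB (-0.54) were also more negative in MDA-MB-231. Of these, FOSL1 rose with both shRNAs in MDA-MB-231, and ETV5 was called in opposite directions there. Few reads carry the 293T side of DUSP6 (group means of 0.117 to 0.164 RPKM), ETV5 (0.104 to 0.29 RPKM) and FOSL1 (0.317 to 0.801 RPKM). The positive differences were DUSP2 at 2.21 ± 0.50 (adjusted p = 0.000362), ATF3 at 0.94 ± 0.09 (adjusted p = 3.63e-11), SRF at 0.48 ± 0.05 (adjusted p = 2.64e-11) and, under 0.3, JUN, MYC, KLF10 and KLF6. DUSP2 rests on at most 1.48 CPM in either line. The KLF6 call was lost without shControl 1 of 293T or shControl 2 of MDA-MB-231 (adjusted p = 0.0555 and 0.0562). Taken with 1 shRNA alone, 5 values called in that fit or in the fit of both shRNAs had the other sign. With shKDM5A-1 alone JUN was at -0.25, DUSP4 at 0.21, IER5 at 0.10 and KLF4 at -0.28. With shKDM5A-2 alone TRIB1 was at 0.0067. Sign changes without a call in either fit were not counted. With shKDM5A-1 alone the called differences of ATF3 (0.26, adjusted p = 0.0558), DUSP6 (-0.55, adjusted p = 0.236), FOSL1 (-0.47, adjusted p = 0.229), KLF10 (0.08, adjusted p = 0.224), KLF6 (0.09, adjusted p = 0.119) and MYC (0.05, adjusted p = 0.281) kept their sign and were not called.

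Over the 8 contrasts against controls, JUN, JUND, RHOB and ZFP36L2 were called in all 8, 11 members in 7 and EGR2 in none. Of the 37 members tested in all 8, 10.8% were called in 8 and 29.7% in 7, where 4.04% and 7.85% of the 13702 genes tested in all 8 were. JUN was lower in 7 of its 8 calls and higher with shKDM5A-1 in 293T. DUSP4 was lower in 7 contrasts and not called with shKDM5A-2 in 293T (-0.47 and 0.16 for shKDM5A-1 and shKDM5A-2). FOS was lower in 6, higher in 1 and not called in 1.

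Kinases and adaptors upstream of these genes were called in both directions, mostly at shares near those of all genes. Of 26 ERK cascade genes, 4 rose and 7 fell with both siEglN2 in MDA-MB-231 (15.4% and 26.9%, against 18.3% and 20.4% of all genes). In 293T 5 rose and 5 fell (19.2% each, against 14.6% and 15.5%). With both shKDM5A, 5 rose and 6 fell in MDA-MB-231 (19.2% and 23.1%, against 16.4% and 15.8%), and 2 rose and 0 fell in 293T (7.69% and 0%, against 7.33% and 6.11%). MAPK3, which encodes ERK1, fell with siEglN2 in MDA-MB-231 (-0.41 and -0.36) and in 293T (-0.29 and -0.30) and with shKDM5A in MDA-MB-231 (-0.58 and -0.24). RPS6KA1, the ERK-activated kinase RSK1, fell with siEglN2 in MDA-MB-231 (-0.34 and -0.32) and in 293T (-0.56 and -0.52). RPS6KA5, encoding the kinase MSK1, fell in MDA-MB-231 with siEglN2 (-0.77 and -0.70). EGFR (0.58 and 0.57) and the phosphatase gene PTPN11 (0.59 and 0.63) rose with shKDM5A in MDA-MB-231, while RASA1, a RAS GTPase activator, fell (-0.73 and -0.47). The median log2 fold change of the list lay between -0.0419 and 0.0437 in the 8 contrasts.

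Of 13 ternary complex and CREB factors tested in MDA-MB-231, 4 rose and 1 fell with both siEglN2 (30.8% and 7.69%, against 18.3% and 20.4% of all genes), and 4 rose and 0 fell with both shKDM5A (30.8% and 0%, against 16.4% and 15.8%). Of the 12 tested in 293T, 3 rose and 1 fell with both siEglN2 (25% and 8.33%, against 14.6% and 15.5%), and 0 rose and 1 fell with both shKDM5A (0% and 8.33%, against 7.33% and 6.11%). ELK4, a ternary complex partner of SRF, rose with siEglN2 in 293T (0.53 and 0.54), and ETS1 rose in MDA-MB-231 with siEglN2 (0.31 and 0.32) and shKDM5A (0.32 and 0.35). Most cytoskeletal genes that SRF drives with its MRTF partners rose with siEglN2 in MDA-MB-231, where the SRF transcript fell. There 13 of 14 rose with both siRNAs (92.9%, against 18.3% of all genes), TAGLN (1.14 and 1.11), CNN2 (0.64 and 0.65) and MYL9 (0.63 and 0.60) among them, and TPM4 fell (-0.14 and -0.15). The list's median log2 fold change was 0.22 and 0.21 with siEglN2-1 and siEglN2-2. In 293T 1 of 13 of them rose and 4 fell with siEglN2 (7.69% and 30.8%, against 14.6% and 15.5%). With shKDM5A, 6 of 14 rose and 2 fell in MDA-MB-231 (42.9% and 14.3%, against 16.4% and 15.8%), with TAGLN (0.39 and 1.23) and FHL2 (0.56 and 1.03) among those that rose. In 293T 2 of 13 rose and 2 fell (15.4% each, against 7.33% and 6.11%).

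Of 29 other fast or ERK-dependent genes tested in MDA-MB-231, 14 rose and 10 fell with both siEglN2 (48.3% and 34.5%, against 18.3% and 20.4% of all genes). ARC (0.85 and 0.76) and CTGF (0.66 and 0.64) were among those that rose, and EPHA2 (-1.13 and -1.10), LIF (-1.09 and -1.09) and IL11 (-0.88 and -0.87) among those that fell. SPRY1, DUSP8, DUSP10 and DUSP14 also rose there, while DUSP7 and SPRED2 fell. In 293T 0 of 30 rose and 14 fell (0% and 46.7%, against 14.6% and 15.5%), with SPRED2 (-0.81 and -0.84), EPHA2 (-0.77 and -0.84) and MAFF (-0.69 and -0.69) among those that fell. With both shKDM5A in MDA-MB-231, 12 of 29 rose and 8 fell (41.4% and 27.6%, against 16.4% and 15.8%), ARC (1.30 and 1.66) and CTGF (0.86 and 1.43) rising and SPRY1, a relative of SPRY2 and SPRY4, among those that fell (-1.08 and -1.31). In 293T 1 of 30 rose, GADD45B (0.48 and 0.48), and 2 fell, PHLDA2 (-0.99 and -1.24) and SPRY1 (-0.22 and -0.58), or 3.33% and 6.67% against 7.33% and 6.11% of all genes.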

How the data were processed

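Libraries were made from 1 µg of total RNA with the NEBNext Ultra II kit, per the labels' protocols. Per the submitters' processing notes the tools included Salmon 0.1.19 and STAR 2.4.2. Those notes list hg19 as well as GRCh38, without saying which step used which. The authors deposited 4 tables of expected counts per gene, not normalized, with 9 libraries each, and their 36 normalized columns were not used. Counts were rounded to whole numbers, and rows whose gene names had turned into dates (0.182 to 0.213% of counts) were dropped.

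Each table was filtered (filterByExpr, minimum count 10), scaled by TMM and fitted with edgeR 4.0.16 (R 4.3.3, quasi-likelihood test, Benjamini-Hochberg adjustment over all genes tested). CPM values use the TMM library sizes, and RPKM divides them by GENCODE 29 exon length. Differences between lines came from a fit of both tables of a target. The code for single tables was first run on simulated counts holding known changes. Alternatives were DESeq2 1.42.0, other scalings and filters, fits without the third group, a replicate block and each library left out. Same-numbered libraries had residual correlations between -0.127 and 0.0532 over all genes tested. That check cannot exclude a pairing that bears on part of the genes. All 40 genes may be named, and full values are given for those called with both reagents, oppositely, or in all experiments or none. The members and lists were chosen with earlier results of these data known.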

Additional observations from a re-analysis of the deposited data

Results flagged for a closer look

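The results marked here are responses that differed between the cell lines by the test of the difference itself (edgeR's quasi-likelihood test, adjusted over all genes). Each value in brackets is the log2 response in MDA-MB-231 minus that in 293T, with both reagents averaged over their own controls, 3 libraries in each group. For EglN2 knockdown the difference was positive for DUSP1 (0.88), ETV4 (0.83), ETV5 (0.78), SGK1 (0.76), TRIB1 (0.68), MYC (0.66), JUND (0.57), DUSP5 (0.49), DUSP4 (0.49), ATF3 (0.49), JUN (0.38), KLF4 (0.34), JUNB (0.34), SPRY2 (0.31), FOSL2 (0.28) and SRF (0.24). It was negative for KLF2 (-1.11), ZFP36L1 (-0.69), RHOB (-0.39), EGR1 (-0.34), ZFP36L2 (-0.29), KLF10 (-0.27) and IER2 (-0.16). For KDM5A knockdown it was positive for DUSP2 (2.21), ATF3 (0.94), SRF (0.48), JUN (0.29), KLF10 (0.22), MYC (0.20) and KLF6 (0.13). It was negative for FOS (-2.44), FOSB (-1.88), NR4A2 (-1.68), ETV4 (-1.58), ETV5 (-1.20), DUSP6 (-1.09), IER3 (-1.05), JUNB (-0.82), FOSL1 (-0.77), SGK1 (-0.65), RHOB (-0.54), SPRY2 (-0.54), JUND (-0.40), DUSP5 (-0.38), SPRED1 (-0.38), BTG1 (-0.29), EGR1 (-0.29), IER2 (-0.27), IER5 (-0.26), DUSP4 (-0.24) and TRIB1 (-0.16).

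The EglN2 difference of IER2 was lost in 10 of the fits that left out 1 library, with adjusted p-values between 0.0519 and 0.112. The KDM5A difference of EGR1 was lost in 9 such fits (adjusted p between 0.0518 and 0.192), that of DUSP4 without shKDM5A-2 number 2 or shControl 1 of 293T (0.0512 and 0.0678) and that of TRIB1 without shControl 2 of 293T (0.0529). With shKDM5A-1 alone the KDM5A differences of JUN, DUSP4 and IER5 had the other sign, as had that of TRIB1 with shKDM5A-2 alone. The values of DUSP2, and in 293T those of DUSP6, ETV4, ETV5 and FOSL1, rest on few reads. The fall of each target also differed between the lines, for EGLN2 in the EglN2 test (-0.70) and for KDM5A in the KDM5A test (-0.31). No explanation of these differences was tested.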

How the results depend on the processing

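No called member changed direction against controls in any alternative run. Median-of-ratios scaling changed 6 calls, no filter on low counts 6 and a minimum average log2 CPM of 1 changed 7 among the members it still tested, 36 in MDA-MB-231 and 32 or 33 in 293T. Fits of only the 6 libraries of a comparison lost 9 calls, among them in 293T those of FOSL2, JUNB and NR4A1 with siEglN2-1 (adjusted p = 0.0839, 0.0695 and 0.0578), of FOSL1, IER2 and KLF10 with siEglN2-2 (0.0731, 0.0938 and 0.0671) and of IER3 with shKDM5A-2 (0.0621), and gained 2. Requiring a fold of at least 1.5 left 6, 7, 7 and 14 members in MDA-MB-231 with siEglN2-1, siEglN2-2, shKDM5A-1 and shKDM5A-2, and 10, 8, 4 and 9 in 293T. It left 14 and 13 members between the shRNAs in MDA-MB-231 and 293T, and 8 and 12 for the differences of the EglN2 and KDM5A responses. At an adjusted p under 0.01, 15 members were called with siEglN2-1 in 293T. Among members called in either fit, the KDM5A difference between lines reversed with shKDM5A-1 alone for DUSP4 (0.21), IER5 (0.10), JUN (-0.25) and KLF4 (-0.28). With shKDM5A-2 alone it reversed for TRIB1 (0.0067). Leaving out each library in turn gave 28 to 30 and 28 to 31 calls with the siRNAs and 31 to 33 and 33 to 34 with the shRNAs in MDA-MB-231, and 17 to 24, 16 to 20, 18 to 21 and 20 to 22 in 293T. Between shRNAs it gave 28 to 33 in MDA-MB-231 and 21 to 24 in 293T, between siRNAs 0, and for the differences between lines 20 to 24 (EglN2) and 26 to 29 (KDM5A). With the replicate block the counts were 30, 29, 33 and 34 in MDA-MB-231 and 22, 20, 21 and 21 in 293T, within 1.5 times those without it, and 23 and 29 for the differences between lines. That fit leaves out the unnumbered siControl of 293T, and under it the 293T calls of FOSL1 were lost (-0.95 and -0.60, adjusted p = 0.0837 and 0.279), as were those of ETV4 and JUNB with siEglN2-1 (0.128 and 0.164). In 293T the block also ended the IER3 call with shKDM5A-2 (0.0632) and the IER2 call between shRNAs (0.0596) and added NR4A1 with siEglN2-2 (0.0482). SPRED1 was called lower there (-0.63 and -0.59, adjusted p = 0.000199 and 0.000359), and differences between lines were gained at SPRED1 (0.43, adjusted p = 0.00125), IER3 (-0.23, adjusted p = 0.0061) and KLF2 (KDM5A, -0.40, adjusted p = 0.0455), and those of ETV4 and ETV5 for EglN2 were lost (0.169 and 0.0565). Leaving out 1 library gained 20 calls of a gene against its controls (adjusted p between 0.000167 and 0.0469) and 7 differences between lines (0.000747 to 0.0497). Counted in each such fit and over all contrasts, 148 member calls were lost and 44 gained. DESeq2 called 28, 28, 31 and 33 in MDA-MB-231 and 20, 18, 15 and 18 in 293T. Depth bears most on the values with group means under 2 CPM, among them those of FOSL1, ETV5 and DUSP6 in 293T, ETV4 with siEglN2 and siControl in 293T, EGR2 and EGR3 in both lines and DUSP2 except with siEglN2 and siControl in 293T. The cause of each changed call was not tested.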
